A study of Mus musculus with 4 samples.

Results

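*Hoxaas3*, *Hotairm1*, *Hoxb3os*, *Evx1os* and *Crnde* are noncoding RNA genes that lie in, beside or apart from the Hox clusters of the mouse. They were taken by name, as 5 of the 19616 genes listed over the count tables of gastrulating embryos, and they were picked with their levels across stages and cell types in these tables already seen, so those levels are given as a description and not as a test. The single cells came from embryos of genotype TnEGP-CreERT2/+; R26Rtdtomato/R26Rtdtomato. In these the *T* locus drives a tamoxifen-inducible Cre in primitive streak cells, and both copies of the R26R locus carry a tdTomato reporter. All 3 groups share these alleles and a tamoxifen dose of 0.08 mg/bw, and none was left untreated. MS-LS (mid to late streak) embryos were dissected at E6+21h after tamoxifen at E6+5h, OB-EB (no bud to early bud) embryos at E7+3h after tamoxifen at E6+21h, and EHF (early head fold) embryos at E7+14h after tamoxifen at E7+7h. Embryos of a stage were pooled into 1 library with no record of which cell came from which embryo. Stage, library and tamoxifen timing therefore cannot be told apart, there was no replicate, and no test was made.

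Hox genes encode homeodomain transcription factors that give cells their position along the head-to-tail axis. During gastrulation they switch on in order, from the 3′ end of each cluster to its 5′ end, and retinoic acid, Wnt and Fgf signals and the Cdx factors bear on that order. Many RNAs without a protein product are transcribed between and across the Hox genes, often from the strand opposite to the coding genes. *HOTAIRM1*, the human counterpart of *Hotairm1*, was described as a myeloid RNA of the HOXA cluster, and *CRNDE* as an RNA raised in colorectal tumours.

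The label of Hox cluster RNAs held for *Hotairm1*, *Hoxaas3* and *Hoxb3os*, and not for *Evx1os* or *Crnde*. In the GENCODE M21 annotation of GRCm38, *Hotairm1* occupied chr6:52156902-52162119 on the plus strand. *Hoxaas3* was the longest of the 5, at chr6:52175217-52215076 on the plus strand, and crossed *Hoxa3*, *Hoxa4*, *Hoxa5*, *Hoxa6* and the end of *Hoxa7*. Of its 2889 exonic bases, 586 lay opposite *Hoxa7* exons and 297 opposite *Hoxa3* exons. *Hoxb3os*, at chr11:96343072-96354691 on the minus strand, lay across the end of *Hoxb3* and the whole of *Hoxb2*, and it shared the most sequence with coding exons, 2250 and 953 of its 4201 exonic bases. *Evx1os*, at chr6:52308389-52314832 on the minus strand, stood 47508 bp beyond *Hoxa13*, the 5′ end of the HoxA cluster. It overlapped the start of *Evx1*, a homeobox gene of the posterior streak, by 1335 bp. *Crnde* was on another chromosome from every Hox cluster, at chr8:92326033-92356120 on the minus strand. There it shared a divergent start region with *Irx5*, an Iroquois homeobox gene, whose start was 1505 bp away.

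**Figure D1:**
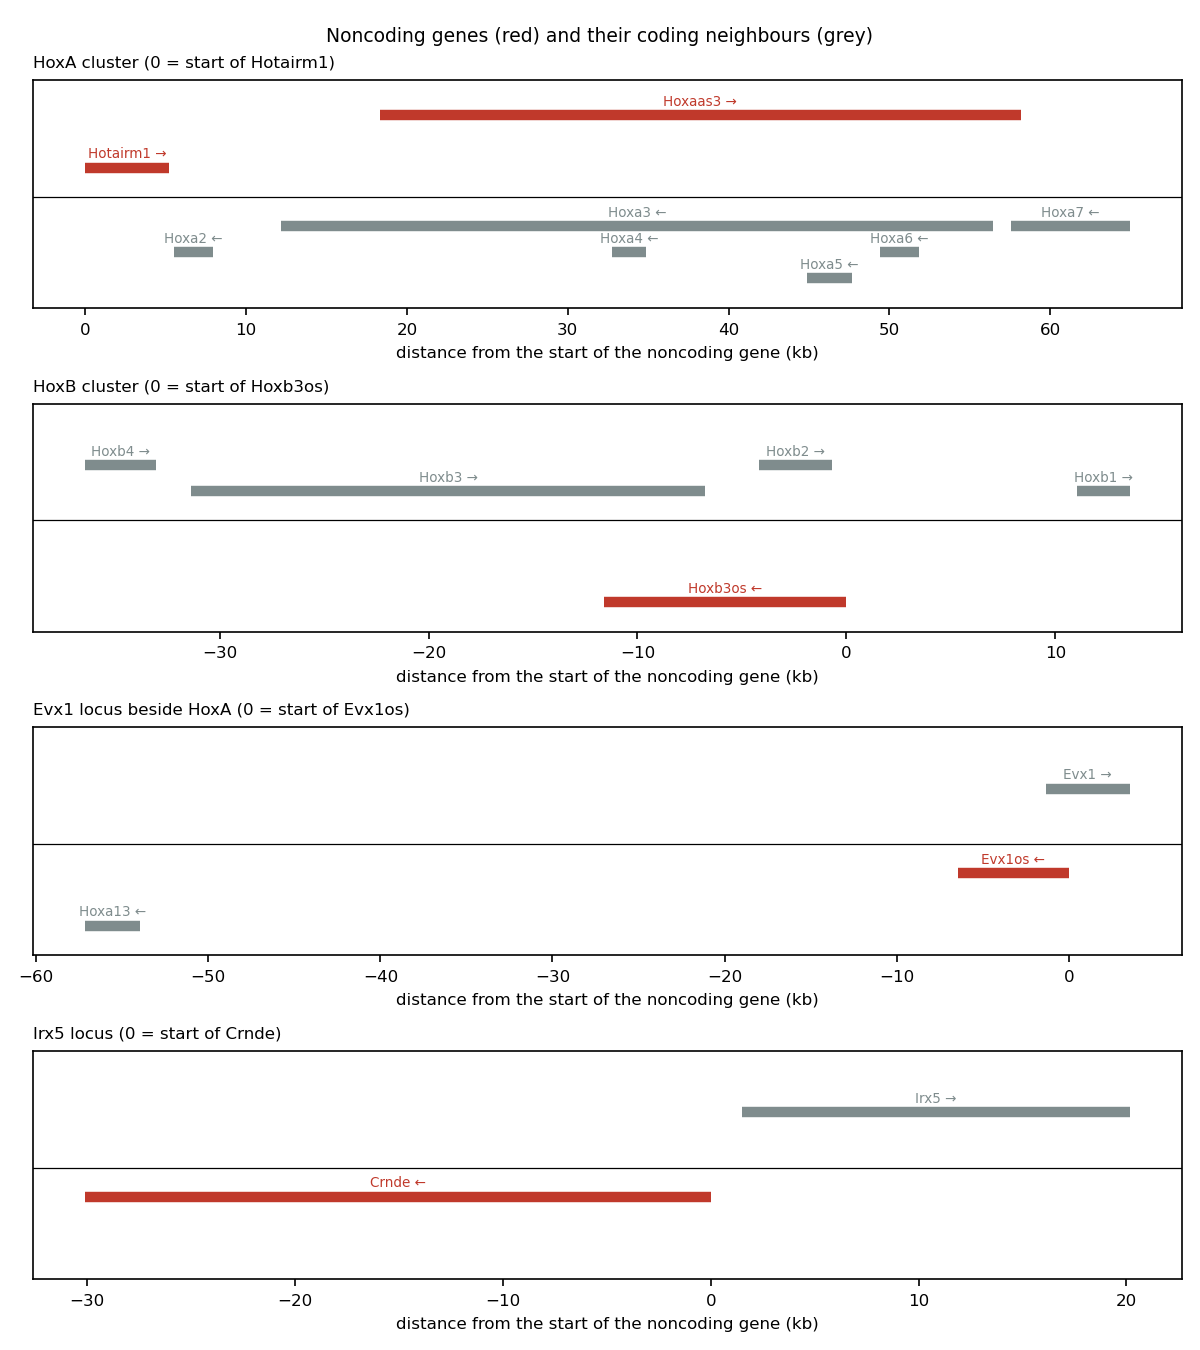
Maps of the 5 noncoding genes (red) and their coding neighbours (grey), with distance from the start of the noncoding gene in kb on the x axis, plus-strand genes above the line and arrows for the direction of transcription. *Hoxaas3* crosses several HoxA genes, *Evx1os* overlaps the start of *Evx1*, and *Crnde* overlaps no coding gene.

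The libraries were made from transcript 3′ ends, so the last bases of each RNA are shown. Where in a transcript the reads fell cannot be seen from counts per gene. For each gene the last 120 transcribed bases of the transcript that reaches furthest are given, 5′ to 3′, with the polyadenylation signal AATAAA in capitals. For *Hoxaas3* only 30 bases from the signal on are given, since its last 120 bases lie wholly opposite a *Hoxa7* exon.
Hotairm1, GRCm38 chr6:52162000-52162119, plus strand: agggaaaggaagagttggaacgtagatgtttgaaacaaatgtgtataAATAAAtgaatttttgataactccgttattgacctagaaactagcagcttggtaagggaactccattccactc
Hoxaas3, GRCm38 chr6:52215042-52215071, plus strand: AATAAAtatattatttttcaatttaaatag
Hoxb3os, GRCm38 chr11:96343072-96343191, minus strand: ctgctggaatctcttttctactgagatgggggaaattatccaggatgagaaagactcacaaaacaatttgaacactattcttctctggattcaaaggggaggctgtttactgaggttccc
Evx1os, GRCm38 chr6:52308389-52308508, minus strand: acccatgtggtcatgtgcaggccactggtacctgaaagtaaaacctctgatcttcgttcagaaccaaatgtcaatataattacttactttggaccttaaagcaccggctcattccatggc
Crnde, GRCm38 chr8:92326033-92326152, minus strand: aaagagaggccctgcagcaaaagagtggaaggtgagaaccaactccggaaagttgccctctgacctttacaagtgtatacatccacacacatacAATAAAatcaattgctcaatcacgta
The letters AATAAA began 73 bases before the end of *Hotairm1*, 35 before the end of *Hoxaas3* and 26 before the end of *Crnde*, and were not in the last 120 bases of *Hoxb3os* or *Evx1os*. Of 137364 annotated transcripts of at least that length, 29.8% held these letters in their last 120 bases. A match of letters is a description and not evidence that an end is used.

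*Crnde* is transcribed away from *Irx5*, and *Evx1os* back across the start of *Evx1*. Their start regions are shown because each pair is followed below. RefSeq start windows of 300 bases, from 250 before to 50 after the start, are given with the 50 transcribed bases in capitals. *Hotairm1* and *Hoxaas3* had no entry.
Evx1os start, GRCm38.p6 chr6:52314783-52315082, minus strand: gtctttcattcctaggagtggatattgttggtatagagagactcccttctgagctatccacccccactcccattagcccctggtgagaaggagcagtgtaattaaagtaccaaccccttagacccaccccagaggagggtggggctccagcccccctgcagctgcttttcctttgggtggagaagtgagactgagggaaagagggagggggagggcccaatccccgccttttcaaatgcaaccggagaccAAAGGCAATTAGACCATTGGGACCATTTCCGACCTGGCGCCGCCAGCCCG
Crnde start, GRCm38.p6 chr8:92356071-92356370, minus strand: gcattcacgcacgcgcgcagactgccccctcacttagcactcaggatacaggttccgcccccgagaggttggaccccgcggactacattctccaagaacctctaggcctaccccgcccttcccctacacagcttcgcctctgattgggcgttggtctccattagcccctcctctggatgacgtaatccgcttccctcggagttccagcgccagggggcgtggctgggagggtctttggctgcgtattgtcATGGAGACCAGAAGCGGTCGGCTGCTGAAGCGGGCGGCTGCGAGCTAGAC
The letters TTTATG (Cdx), TGATNNAT (Hox), AGGTCA (nuclear receptor) and CTTTGAT (Tcf/Lef) were searched on both strands in the start windows of *Evx1os*, *Evx1*, *Crnde* and *Hoxb3os*. None was found in these 4 windows. Over all 32851 RefSeq start windows, 11.9%, 8.85%, 16.3% and 3.73% held them, in the same order, so their absence from a window of this size is common.

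Counts are UMIs, the molecular tags that mark each captured RNA once. Levels are in CPM, the count of 1 gene scaled to 1000000 UMIs of the library or cell group it was taken from, with an exact Poisson 95% interval. All intervals cover counting error only and not the spread between embryos. There were 3635 cells in MS-LS, 3994 in OB-EB and 3494 in EHF, with 17966956, 12181436 and 20376539 UMIs in all and a median of 4251, 2620.5 and 5584 UMIs per cell. The libraries shared 12 to 18 cell barcodes in pairs. In a sum over cells, fewer cells of a type and less RNA per cell cannot be told apart. How well a 3′ end is captured can differ between genes, so levels are compared between stages and cell groups for 1 gene at a time. Shares of a pair's UMIs are likewise read across stages and groups, and not as relative amounts of the 2 RNAs.

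*Hotairm1* and *Hoxb3os* were higher at each later stage. *Hotairm1* was at 3.56 CPM in MS-LS (64 UMIs, 95% interval 2.74 to 4.55), 8.95 CPM in OB-EB (109 UMIs, 7.35 to 10.8) and 30.9 CPM in EHF (629 UMIs, 28.5 to 33.4). *Hoxb3os* was at 1.39 CPM in MS-LS (25 UMIs, 0.90 to 2.05), 11.6 CPM in OB-EB (141 UMIs, 9.74 to 13.7) and 31.1 CPM in EHF (634 UMIs, 28.7 to 33.6). The gain was spread over both steps for *Hotairm1*, while *Hoxb3os* had its larger step first. Between MS-LS and OB-EB the log2 ratio was 3.06 for *Hoxb3os* (2.44 to 3.73) and 1.33 for *Hotairm1* (0.87 to 1.80), and these intervals did not overlap. From OB-EB to EHF the log2 ratio was 1.43 for *Hoxb3os* (1.16 to 1.70) and 1.79 for *Hotairm1* (1.49 to 2.09), with overlapping intervals.

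*Hoxaas3* was listed in the EHF table only, at 19.7 CPM (401 UMIs, 17.8 to 21.7) in 225 cells. It is unlisted in MS-LS and OB-EB, and since those tables also hold genes with a UMI in fewer than 3 cells, being unlisted gives neither a level nor a bound. *Crnde* increased by smaller steps, from 3.84 CPM in MS-LS (69 UMIs, 2.99 to 4.86) to 6.07 CPM in OB-EB (74 UMIs, 4.77 to 7.63) and 10.8 CPM in EHF (221 UMIs, 9.46 to 12.4). *Evx1os* differed less between stages, with 7.24 CPM in MS-LS (130 UMIs, 6.05 to 8.59), 9.44 CPM in OB-EB (115 UMIs, 7.79 to 11.3) and 8.10 CPM in EHF (165 UMIs, 6.91 to 9.43). Its log2 ratio of OB-EB over MS-LS was 0.38, with an interval just above 0 (0.0091 to 0.76), and that of EHF over OB-EB was -0.22 (-0.57 to 0.13). Scaling the libraries with TMM, which sets them on their shared genes, shifted all log2 ratios of EHF over OB-EB by -0.29, and the interval for *Evx1os* then lay below 0, at -0.51 (-0.86 to -0.16).

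Of the 4 listed RNAs, 2 had a log2 ratio of 1 or more for OB-EB over MS-LS, where 4.17% of all genes tested did, and 2 did so for EHF over OB-EB, where 15.2% of all genes did. For EHF over MS-LS it was 3 of 4, against 11.0% of all genes. The members were chosen on these values, and nothing is read from the counts. In EHF a UMI was found in 13.8% of the 3494 cells for *Hotairm1*, 13.5% for *Hoxb3os*, 6.44% for *Hoxaas3*, 5.95% for *Crnde* and 3.95% for *Evx1os*. In Exe ectoderm-like cells of the same library, a tissue outside the embryo proper, the shares in the same order were 4.27%, 1.17%, 0.58%, 1.36% and 0.58%, at a median depth of 6933 UMIs against 5584 overall. The *Hotairm1* level there was above that in Exe endoderm-like cells, where 1.20% of cells held a UMI at a median depth of 6432. Whether any of these shares is background was not tested.

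**Figure D2:**
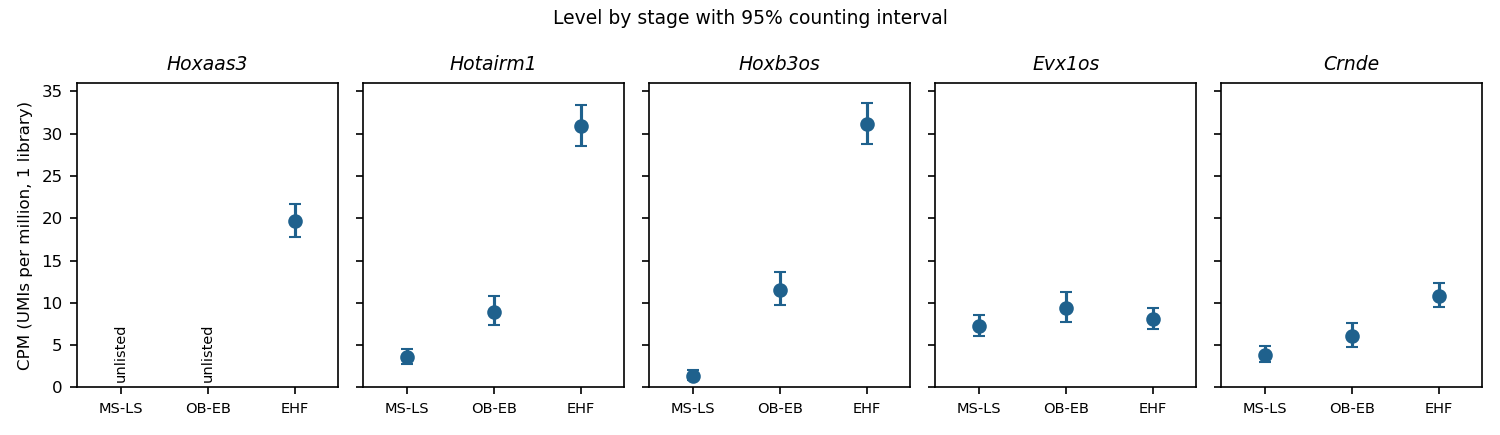
Level of each noncoding RNA in the 3 libraries, as CPM on the y axis with the exact Poisson 95% interval. *Hotairm1* and *Hoxb3os* reach about 31 CPM in EHF, *Evx1os* stays between 7.24 and 9.44 CPM, and *Hoxaas3* is unlisted in the 2 earlier tables.

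The coding neighbours were followed beside the noncoding RNAs as a share of the UMIs of each pair. *Hoxb3os* and *Hoxb2* gave a *Hoxb3os* share of 32.1% in MS-LS (21.9 to 43.6), 55.5% in OB-EB (49.2 to 61.7) and 45.1% in EHF (42.5 to 47.8). *Hoxb3*, the gene after which *Hoxb3os* is named, gave only 10 UMIs in OB-EB and 65 in EHF, too few to follow its share across groups, and *Hoxb3os* was set beside *Hoxb2* for this reason.

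Outside the Hox clusters, *Evx1* was lower in EHF. Its 115, 106 and 105 UMIs over the 3 stages gave a log2 ratio of -0.76 for EHF over OB-EB (-1.16 to -0.35), and the *Evx1os* share of the pair was 53.1%, 52.0% and 61.1%, with overlapping intervals. *Irx5* gave 48, 104 and 362 UMIs, and the *Crnde* share of that pair was 59.0% in MS-LS (49.5 to 68.0), 41.6% in OB-EB (34.2 to 49.2) and 37.9% in EHF (34.0 to 42.0). Of the 21 HoxA and HoxB coding genes, 13 were listed in both OB-EB and EHF, all 13 had an interval above 0, and their median log2 ratio was 3.15. For OB-EB over MS-LS it was 4 of 7 listed, with a median of 1.70. Both medians lie above the ratio of any noncoding RNA over the same step except *Hoxb3os* from MS-LS to OB-EB. All of these counts rest on single libraries. The share of all genes with an interval above 0 is not given here, so nothing is read from the number of such intervals.

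**Figure D3:**
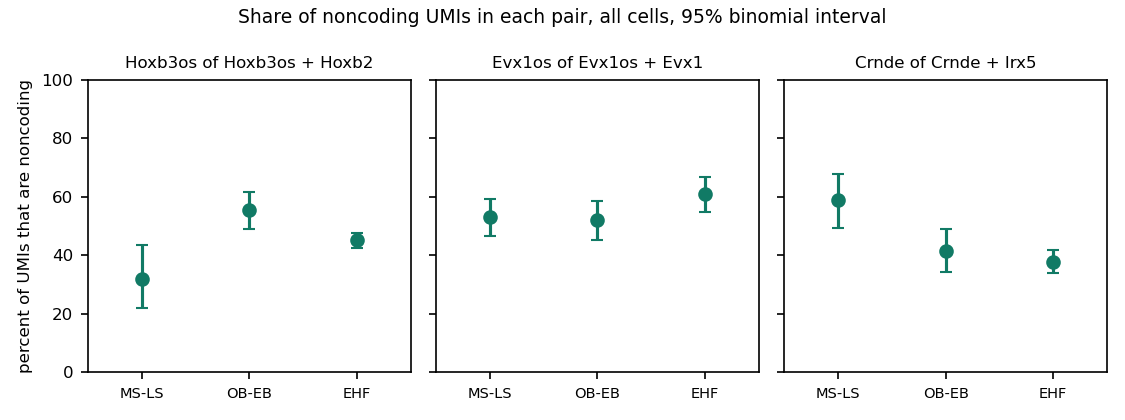
Share of noncoding UMIs in 3 noncoding and coding pairs over all cells of each library, in percent on the y axis with the exact binomial 95% interval. The *Crnde* share of its pair with *Irx5* is 59.0% in MS-LS and 37.9% in EHF, while the *Evx1os* share of its pair with *Evx1* stays between 52.0% and 61.1%.

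EHF cells were clustered with these 5 RNAs, all Hox genes and their coding neighbours left out, which gave 30 clusters. Of these, 19 carried enough markers to be joined into 13 named classes, and 11 kept a number and are described by their leading genes. That made 24 cell groups. A name ending in -like means that a cluster's cells held the markers of that type and nothing more. Names were drawn from a list set for each stage, and epiblast, primitive streak and nascent mesoderm were not on the list for EHF. The study's own cell labels were not among the files used here, so the groups may differ from its groups.

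*Hoxaas3* was the most concentrated of the 5, in caudal cells. It was highest in Caudal epiblast-like cells, at 124 CPM (172 UMIs, 106 to 144), with a UMI in 95 of 245 cells, or 38.8%. This class joined cluster 7, led by *Nkx1-2* and *Cdx1*, and cluster 20, led by *T*, *Nefm* and *Hes7*. Its name is less sure for cluster 20, whose 10 leading genes held 3 caudal epiblast markers (*T*, *Nkx1-2*, *Wnt3a*) and as many of caudal mesoderm (*T*, *Mixl1*, *Fst*). Cluster 15, led by *Gal*, the presomitic gene *Tbx6*, *Mixl1* and *T*, had 111 CPM (68 UMIs, 86.5 to 141), and cluster 6, led by *Mesp1*, *Pcdh19* and *Cdx4*, had 85.4 CPM (79 UMIs, 67.6 to 106). Cluster 15 did not differ from the class beyond its interval, and cluster 6 was lower by a log2 ratio of -0.53 (-0.94 to -0.14). The lead of the class rested on cluster 20, at 155 CPM (126 to 189). Cluster 7 alone, at 98.0 CPM (77.1 to 123), was below cluster 15, with overlapping intervals. These 3 groups held 79.6% of all *Hoxaas3* UMIs, whereas the 3 groups with the most UMIs of each other RNA held 47.4% to 66.1% of them. *Hoxaas3* was near 0 in Exe ectoderm-like cells, at 0.84 CPM (3 UMIs, 0.17 to 2.47), and in Exe endoderm-like cells, at 1.79 CPM (4 UMIs, 0.49 to 4.58). Their median depths were 6933 and 6432 UMIs against 5615 in the Caudal epiblast-like cells. Exe mesoderm-like cells, which also lie outside the embryo proper, held a higher level, given below beside *Hoxa7*. No *Hoxaas3* UMI was found in cluster 0, led by *Tcf15*, a gene of paraxial mesoderm, and by *Ppp1r1a*, where 3 UMIs over the group would be 2.5 CPM.

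*Hoxaas3* and *Hotairm1* parted in mesoderm. Cluster 8, led by *Aldh1a2*, which makes retinoic acid, and by *Tbx6*, held 4 *Hoxaas3* UMIs (5.65 CPM, 1.54 to 14.5) and 77 *Hotairm1* UMIs (109 CPM, 85.8 to 136). Caudal epiblast-like cells over cluster 8 gave a log2 ratio of 4.45 for *Hoxaas3* (3.07 to 6.35), or 21.9-fold, and of -0.10 for *Hotairm1* (-0.51 to 0.32). *Hoxaas3* therefore gave 55% of the UMIs of both RNAs in the Caudal epiblast-like cells (49.3 to 60.6), 51.1% in cluster 15 and 49.7% in cluster 6, but 4.94% in cluster 8 (1.36 to 12.2). In cluster 0 it was 0 of 27 UMIs, where 3 UMIs would be 11.1%. With each cell thinned to 2000 UMIs, 21.9% of 242 Caudal epiblast-like cells held a *Hoxaas3* UMI, as did 0.20% of 488 Exe ectoderm-like cells. In cluster 8 it was 0 of 134 cells, where 3 cells would be 2.24%. Of the coding genes that *Hoxaas3* crosses, *Hoxa5* had a log2 ratio of 1.07 (-0.01 to 2.30) and *Hoxa3* of 0.88 (-0.28 to 2.22) for Caudal epiblast-like cells over cluster 8, both with intervals below that of *Hoxaas3*. *Hoxa4* (9 and 2 UMIs) and *Hoxa7* (4 and 0) had too few UMIs in these groups to be compared, and *Hoxa6* was unlisted.

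Within the Caudal epiblast-like class *Hoxaas3* and *Hotairm1* leaned to different cells. *Hoxaas3* was at 155 CPM in cluster 20 (126 to 189) and 98.0 CPM in cluster 7 (77.1 to 123), and *Hotairm1* at 79.9 CPM (59.3 to 105) and 119 CPM (95.7 to 146). *Hoxaas3* was also uneven from cell to cell, with up to 7 UMIs in 1 cell and a ratio of variance to mean of 1.84 in the Caudal epiblast-like cells, where *Hotairm1* had 0.95. A ratio of 1 is what counting alone would give for cells of equal depth. These cells differed in depth, and the class joined clusters 7 and 20, between which the *Hoxaas3* level differed. The part of either in the ratio was not tested. A *Hoxa5* UMI was found in 22.1% of the 95 cells with a *Hoxaas3* UMI (14.2 to 31.8) and in 8.67% of the 150 cells without one (4.70 to 14.4), with intervals that just overlap, at median depths of 5929 and 5197.5 UMIs. The part of depth in this was not tested. For *Hotairm1* in the same cells the shares were 43.2% and 42.7%.

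The *Hoxa7* gene opposite the end of *Hoxaas3* had another pattern. It gave 4 UMIs in Caudal epiblast-like cells (2.88 CPM, 0.78 to 7.36) and 24 in Exe mesoderm-like cells (32.0 CPM, 20.5 to 47.6), where *Hoxaas3* was at 17.3 CPM (13 UMIs, 9.23 to 29.7). How the counting handled strand is not given in the sources used here. Whether reads of either gene were counted for the other was not tested. *5730596B20Rik*, which lies in a *Hoxaas3* intron on the same strand, was at 14.1 CPM in cluster 8 (10 UMIs, 6.77 to 26.0) and 9.35 CPM in Caudal epiblast-like cells (13 UMIs, 4.98 to 16.0), with overlapping intervals.

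*Hotairm1* had a broader range, across the caudal groups and cluster 8 and into neuroectoderm. It stood at 109 CPM in cluster 8 (77 UMIs, 85.8 to 136), 107 CPM in cluster 15 (65 UMIs, 82.2 to 136), 101 CPM in Caudal epiblast-like cells (141 UMIs, 85.3 to 120) and 86.5 CPM in cluster 6 (80 UMIs, 68.6 to 108), and these 4 neighbours in the order do not differ beyond their intervals. Among deeper groups cluster 5 came next, led by the neural genes *Gbx2* and *Hes3*, at 62.4 CPM (77 UMIs, 49.3 to 78.0). Rostral neuroectoderm-like cells (*Otx2*, *Hesx1*, *Six3*, with the epiblast genes *Pim2*, *Slc7a3* and *Dnmt3b* also among their leading genes) held 5 UMIs, and cluster 5 over these cells gave a log2 ratio of 4.21 (2.93 to 5.87).

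*Hoxb3os* was highest in groups led by mesoderm genes. Its first group was cluster 8, at 157 CPM (111 UMIs, 129 to 189), followed by cluster 6 at 126 CPM (105 to 152) and cluster 15 at 95.1 CPM (58 UMIs, 72.2 to 123). It was at 64.0 CPM in Caudal epiblast-like cells (89 UMIs, 51.4 to 78.7), 61.4 CPM in Cardiomyocyte-like cells (46 UMIs, 44.9 to 81.9), 45.5 CPM in Endothelium-like cells (25 UMIs, 29.5 to 67.2), with 60 UMIs in cluster 0 (38.2 to 64.4 CPM). It thus extended into Cardiomyocyte-like and Endothelium-like cells, where *Hoxaas3* gave 2 and 1 UMIs. In cluster 5 it was low, at 13.8 CPM (17 UMIs, 8.03 to 22.1), a log2 ratio to cluster 8 of -3.51 (-4.34 to -2.76), while *Hotairm1* gave -0.80 (-1.27 to -0.32). *Hotairm1* accordingly made up 81.9% of the UMIs of both RNAs in cluster 5 (72.6 to 89.1), 61.3% in Caudal epiblast-like cells, 41.0% in cluster 8 (33.9 to 48.3) and 22% in Cardiomyocyte-like cells (12.3 to 34.7).

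*Hoxb2*, which *Hoxb3os* crosses, kept to the same groups, but not in a fixed ratio. *Hoxb3os* gave 59.1% of the pair in cluster 6 (51.9 to 66.0), 57.7% in cluster 0 and 55.2% in cluster 8 (48.1 to 62.2), but 26.6% in Endothelium-like cells (18.0 to 36.7) and 22.1% in cluster 5 (13.4 to 33.0). Within cluster 0, cells with a *Hoxb3os* UMI held a *Hoxb2* UMI in 40.9% of 44 cells, against 10.4% of 164 cells without one, at median depths of 5954.5 and 5521 UMIs, and the part of depth was not tested. In the other 5 groups looked at, the intervals of both shares overlapped. The share was higher with a *Hoxb3os* UMI than without in cluster 15 (56.1% against 35.8%) and cluster 8 (50.7% against 44.6%). It was also higher in cluster 5 (37.5% against 29.7%) and in Caudal epiblast-like cells (36.2% against 29.5%). In cluster 6 the shares were 38.2% of 76 cells with and 41.9% of 74 cells without a *Hoxb3os* UMI.

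*Evx1os* was highest in posterior groups, and *Evx1* shared its first group. It was at 60.5 CPM in cluster 6 (56 UMIs, 45.7 to 78.6), 27.3 CPM in Caudal epiblast-like cells (38 UMIs, 19.3 to 37.5), 21.3 CPM in cluster 15 (13 UMIs, 11.3 to 36.4) and 21.2 CPM in cluster 8 (15 UMIs, 11.8 to 34.9). Cluster 6 over Caudal epiblast-like cells gave a log2 ratio of 1.15 for *Evx1os* (0.53 to 1.78) and 1.07 for *Evx1* (0.19 to 1.98). In cluster 6, 28.9% of the 45 cells with an *Evx1os* UMI also held *Evx1* (16.4 to 44.3), against 12.4% of the 105 others (6.76 to 20.2), with overlapping intervals, at median depths of 6068 and 5826 UMIs. Neither RNA had a UMI in cluster 0, where 3 UMIs would be 2.5 CPM.

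*Crnde* was highest in groups where *Hoxaas3* and *Evx1os* had few UMIs. It was at 42.5 CPM in cluster 0 (51 UMIs, 31.7 to 55.9), 36.5 CPM in cluster 9, led by *Ptn* and *Cxcl12* (22 UMIs, 22.9 to 55.3), 25.4 CPM in Cardiomyocyte-like cells (19 UMIs, 15.3 to 39.6) and 25 CPM in Rostral neuroectoderm-like cells (37 UMIs, 17.6 to 34.4). In Caudal epiblast-like cells it was at 5.03 CPM (7 UMIs, 2.02 to 10.4), and cluster 0 over these gave a log2 ratio of 3.08 (1.93 to 4.46). *Irx5* gave 4.15 for the same contrast (2.98 to 5.64) and *Irx3* 3.56 (2.63 to 4.67). *Irx3*, although of the same gene family, parted from *Crnde* in Exe ectoderm-like cells, which held 259 of its 979 UMIs and 7 of the 221 *Crnde* UMIs. In single cells of cluster 0 the share with *Irx5* did not differ with *Crnde* beyond its interval, since 34.0% of 47 cells with and 32.3% of 161 cells without a *Crnde* UMI held an *Irx5* UMI.

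**Figure D4:**
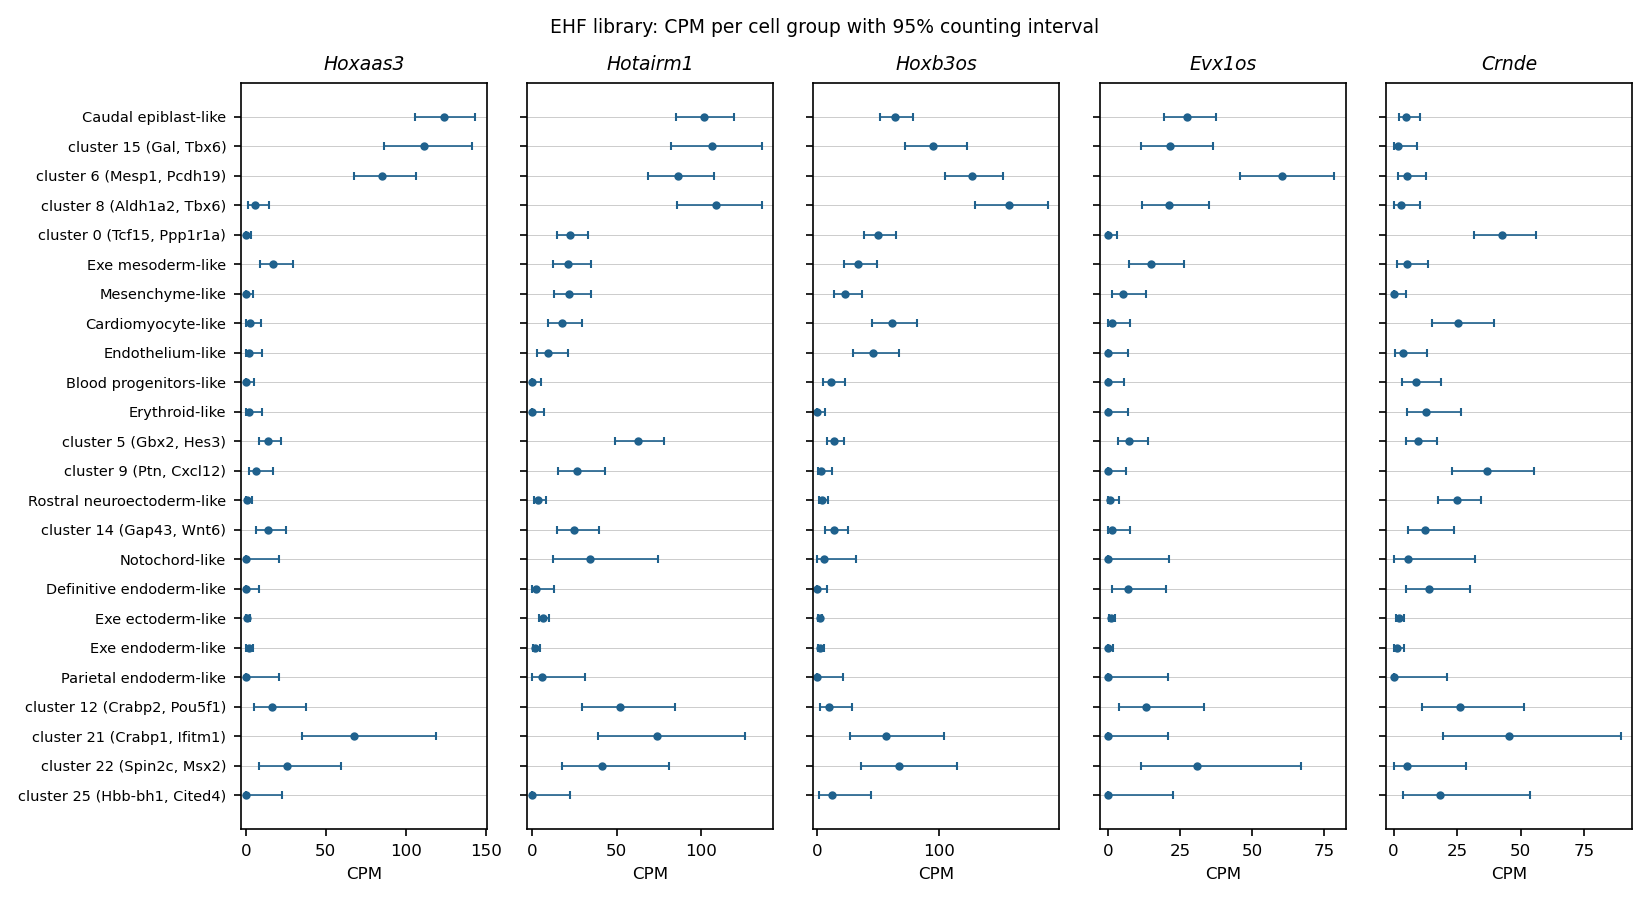
Level of each noncoding RNA in the 24 cell groups of the EHF library, as CPM on the x axis with the exact Poisson 95% interval. The first 4 panels peak in the caudal groups, with *Hoxaas3* near 0 in cluster 8, while *Crnde* is highest in cluster 0, cluster 9 and the shallow cluster 21, whose interval of 19.6 to 89.2 CPM is wide.

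Counted over groups against all other EHF cells, 4 of the 5 RNAs had a log2 ratio of 1 or more in Caudal epiblast-like cells, where 2.46% of all genes did, and 4 in cluster 6, against 3.5%. It was 3 in cluster 8, against 3.95%. In cluster 0 it was 1 (*Crnde*), against 2.11%, in Rostral neuroectoderm-like cells 1 (*Crnde*), against 2.7%, and in cluster 5 1 (*Hotairm1*), against 2.87%. A share over all genes was taken for these groups only. Other groups also held RNAs with such a ratio, cluster 15 and Cardiomyocyte-like cells among them. The members were picked with these patterns known, so the counts are no evidence about noncoding RNAs as a kind. Clusters 12, 21, 22 and 25 were shallow, with median depths of 1665 to 2100 UMIs, and were left out of the orders given above. The largest member counts there were 13 *Hotairm1*, 12 *Hoxaas3* and 8 *Crnde* UMIs in cluster 21, led by *Crabp1*, 16 *Hotairm1* UMIs in cluster 12, led by *Crabp2* and *Pou5f1*, and 13 *Hoxb3os* UMIs in cluster 22, led by *Spin2c* and *Msx2*. The 12 *Hoxaas3* UMIs of cluster 21 came from 4 of its 93 cells.

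**Figure D5:**
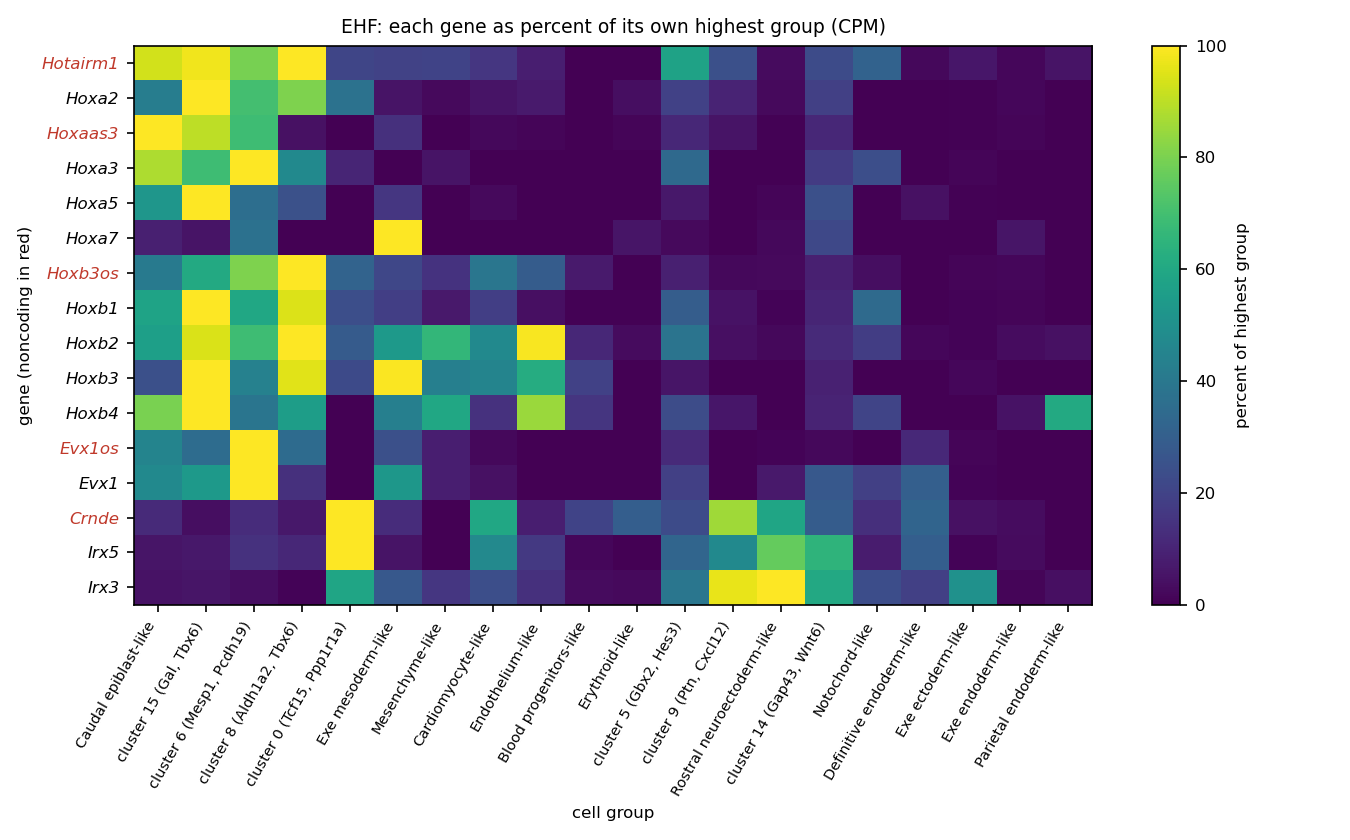
Level of the 5 noncoding RNAs (names in red) and 11 coding neighbours in 20 EHF cell groups, each gene shown as percent of its own highest group, with groups on the x axis and the 4 shallow clusters left out. *Crnde* and *Irx5* are both highest in cluster 0, *Evx1os* and *Evx1* in cluster 6, and *Hotairm1* and *Hoxb3os* in cluster 8, where *Hoxaas3* is near 0.

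At the earlier stages other cells led, though the class names open to these libraries differed from those for EHF. In MS-LS, 35 of the 64 *Hotairm1* UMIs came from Exe ectoderm-like cells (12.2 CPM, 8.50 to 17.0), the trophoblast next to the epiblast, which were 14.1% of the cells. Epiblast-like cells had 5 UMIs (1.53 CPM) and Exe endoderm-like cells 3, and the log2 ratio of Exe ectoderm-like over Epiblast-like cells was 3.00 (1.64 to 4.71), at median depths of 4740 and 4221.5 UMIs. *Hoxb3os* had no UMI in the same Exe ectoderm-like cells, where 3 UMIs would be 1.05 CPM. The EHF Exe ectoderm-like cells still held 23 *Hotairm1* UMIs (6.47 CPM), a log2 ratio of 1.86 to Exe endoderm-like cells (0.31 to 3.85), with far higher levels in the caudal groups. The OB-EB Exe ectoderm-like cells held 7 (7.49 CPM, 3.01 to 15.4).

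In OB-EB *Hotairm1* and *Hoxb3os* were highest in mesoderm. Lateral plate and Exe mesoderm-like cells held 34 *Hotairm1* UMIs (34.3 CPM, 23.8 to 48.0) and 49 *Hoxb3os* UMIs (49.5 CPM, 36.6 to 65.4), against 11 and 4 in Epiblast-like cells. Log2 ratios between these groups were 3.19 (2.18 to 4.32) and 5.18 (3.73 to 7.11), beside 5.74 for *Hoxb2*. In Nascent mesoderm-like cells only *Hoxb3os* stood above the epiblast by its interval, at 4.30 (2.8 to 6.26), with 0.88 for *Hotairm1* (-0.64 to 2.33). These 2 intervals do not overlap, so the RNAs differed in this class before the head fold stage by more than counting error.

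*Evx1os* was higher in Primitive streak-like than in Epiblast-like cells at both earlier stages. In MS-LS it was at 35.8 CPM in cluster 16 (*Mesp1*, *Snai1*; 16 UMIs, 20.5 to 58.2) and 13.9 CPM in Primitive streak-like cells (18 UMIs, 8.24 to 22), against 1.22 CPM in Epiblast-like cells. Streak over epiblast gave a log2 ratio of 3.51 (1.91 to 5.53), with 4.42 for *Evx1* (2.35 to 7.58). In OB-EB the same ratio was 2.55 (1.45 to 3.77) and 2.40 for *Evx1*. *Crnde* was highest among named MS-LS classes in Nascent mesoderm-like cells (15.3 CPM, 6 UMIs) and Anterior primitive streak-like cells (12.9 CPM, 11 UMIs, 6.43 to 23.0), against 2.75 CPM in Epiblast-like cells, and in OB-EB it was at 15.6 CPM in Nascent mesoderm-like cells (18 UMIs, 9.22 to 24.6).

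The genes most like each RNA over the 30 EHF clusters were found by Pearson r of log2(CPM + 10) among 7502 genes. The clusters come from 1 library and share its depth, so r is a description with no test. *Hotairm1* was close to *Hoxb1* (0.95) and *Cdx1* (0.91), and *Hoxb3os* was closest to *Hoxb2* (0.91), *Hoxb1* (0.85) and *Lef1* (0.84). *Hoxaas3* was closest to *Fgf8* and *Nefl* (0.82 each) and *Nefm* (0.81). Among neighbours with too few UMIs for that search, *Hoxa5* had 0.88 with *Hoxaas3*, and *Evx1* had 0.88 with *Evx1os*. Within the search, which took genes with at least 200 UMIs, *Evx1os* was closest to *Grsf1* (0.77), *Hoxaas3* (0.76) and *Nefm* (0.75). Below that cut *Evx1os* had a higher r with *Hoxa5* (0.82), *Hoxb8* (0.79) and *Cdx4* (0.78) as well. With genes of at least 50 UMIs allowed, its 3 closest were *Evx1*, *Hoxa5* and *Fzd10*, so none of its genes from the search stayed. *Crnde* was closest to *Irx5* (0.77), *Shisa2* and *Dcps* (0.69 each). The r of *Crnde* with the other 4 RNAs lay between -0.17 and 0.15.

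Other noncoding genes of the Hox clusters were scarce. Of 49 annotated within or 20000 bp around the 4 clusters, 6 were listed in MS-LS, 9 in OB-EB and 15 in EHF, and beyond the named RNAs only *Haglr* and *Gm15050* passed 50 UMIs in a library. *Haglr*, beside *Hoxd1*, gave 43, 71 and 79 UMIs over the stages. *Gm15050*, between *Hotairm1* and *Hoxaas3* on the same strand, gave 4, 7 and 79, with 21.3 CPM in cluster 15 (11.3 to 36.4), 16.9 CPM in cluster 8 (8.75 to 29.6) and 15.8 CPM in Caudal epiblast-like cells (9.91 to 23.9). *Gm15050* thus had no drop in cluster 8 like that of *Hoxaas3*, its neighbour. Of 15 posterior and retinoic acid genes set beside the RNAs, 11 had an interval above 0 and 4 below 0 for EHF over OB-EB, with a median log2 ratio of 2.09, with *Fgf8*, *Cyp26a1* and *T* among the latter. For OB-EB over MS-LS it was 6 above and 2 below of 13 listed, with a median of 0.56. No share of all genes with such intervals is given here, so nothing is read from their number.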

How the data were processed

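Cells were dissociated with papain and libraries made with the Chromium Single Cell 3′ v2 kit. Per the labels and the study's methods, the deposited UMI counts per gene and cell were made by the authors with Cell Ranger 3.0.2 on GRCm38 with a tdTomato sequence added, and cells were then filtered. The 4 count tables held 3 libraries, since 2 EHF tables had the same counts and were used once. Replicate numbers follow accession order. With 1 library per stage edgeR's quasi-likelihood test could not be run, and edgeR 4.0.16 gave TMM factors only.

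UMIs were summed per library and per cell group. EHF, OB-EB and MS-LS cells were log-normalised (scale factor 10000), reduced to 2000 variable genes and 50 components and clustered at resolution 4.5 in Seurat 5.3.0 (R 4.3.3), with the noncoding RNAs, Hox genes and neighbours held out. A cluster was named from marker lists if at least 3 markers were detected and its score led by 0.2. Doublets were kept in, and an alternative left out the 5% of cells with the highest doublet scores (scanpy 1.11.5). Intervals are exact (scipy 1.17.1). Background shares are over genes with at least 100 UMIs. Interval coverage and profile recovery were tested on simulated data. The members, lists and named genes were chosen with earlier results of these data known. Named genes were the members, HoxA and HoxB coding genes with *Evx1*, the neighbours of *Crnde*, the 3 genes most like each member, other Hox cluster noncoding genes with at least 50 UMIs, and the posterior list. Some results of these lists are not reported here. Clusters, other genes singled out and pairs of groups were chosen after their values were seen.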

Additional observations from a re-analysis of the deposited data

How the results depend on the processing

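Of 110 alternative values, 92 stayed within the spread or threshold of the reported value and 18 moved; none reversed. TMM scaling put the EHF levels of *Hoxaas3*, *Hotairm1* and *Hoxb3os* at 17.3, 27.1 and 27.3 CPM, and the mean of each cell's own CPM put *Hotairm1* and *Hoxb3os* at 34.3 and 33.9. The leading EHF group of *Hoxaas3* reached 148 CPM at resolution 2, 166 at resolution 8 and 179 with the held-out genes allowed, each time a cluster led by *T*, and that of *Evx1os* 42.8 CPM at resolution 2. Thinned to 1500 UMIs, 2.61%, 5.50%, 4.30%, 1.11% and 1.92% of EHF cells held a UMI of *Hoxaas3*, *Hotairm1*, *Hoxb3os*, *Evx1os* and *Crnde*. With a pseudocount of 1 CPM, 8 of the 15 genes most like the RNAs were kept. With no filter on low counts, 13.6%, 29.1% and 27.9% of all genes had a log2 ratio of 1 or more for OB-EB over MS-LS, EHF over OB-EB and EHF over MS-LS. The cause of these moves was not tested beyond what each setting changes by construction.

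Depth limits the rarer RNAs most, since *Crnde* and *Evx1os* gave at most 221 UMIs in a library. No paired analysis was possible because each stage is 1 library and no result comes from a test. No library was left out, since a stage then has no cells.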
